A study of Mus musculus with 6 samples.

Results

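The genes described here take up and use the amino acid arginine in mouse cells grown from bone marrow, and they are Slc7a1 and Slc7a2 for uptake, Nos2, Ass1 and Asl for the nitric oxide route, Arg1 and Arg2 for the arginase route, and Odc1 for the step from ornithine to polyamines. These 8 genes were chosen by name, with earlier results of these data known, and a gene entered through a probe set that the array annotation gives to that gene alone. A gene with several such probe sets entered through the brightest by its 6-array mean, so that mean is not a result. Such a probe set existed for 7 of the 8 genes, out of 19938 genes measured in this way. The exception was Ass1, whose 2 probe sets are annotated to Ass1 and to the pseudogene Gm5424 together, and its values are given below as a signal shared between them.

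The study compared 3 sorted cell populations with 2 arrays each, all from C57BL/6J bone marrow of mice labelled male and 6 to 10 weeks old, cultured for 7 days. GM-BMDC were the MHC class II high, F4/80 low cells, labelled dendritic cells, of cultures given 25 ng/ml GM-CSF. GM-BMM were the MHC class II low, F4/80 high cells, labelled macrophages, of cultures given the same GM-CSF. M-BMM were CD11b+ F4/80+ cells, also labelled macrophages, of cultures given 20% L cell conditioned medium as the source of M-CSF, so they differed from GM-BMM in the whole medium supplement as well as in the gate. The labels name no further stimulation, and they call both arrays of a group biological replicates without giving the number of animals or cultures in each. The p-values speak only for the spread between these arrays.

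Values are log2 signals on which a difference of 1 is a 2-fold difference, and the files mark no background. Signals below 5.04, where the lowest 25% of values lie, are called low. Levels of different genes come from different probes and were not set against each other. In sorted bulk samples, fewer cells of a type and less RNA per cell cannot be told apart.

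The array signals followed the gates and partly went against the label male. H2-Ab1, a class II gene, was at 13.09 and 13.17 in GM-BMDC, 10.08 and 11.27 in GM-BMM, and 5.81 and 6.35 in M-BMM. Adgre1, which encodes F4/80, was at 9.39 and 10.91, 12.32 and 12.61, and 12.73 and 12.79 in the same order of groups, so GM-BMDC were not free of its RNA. Itgam, which encodes CD11b, was at 9.67 and 10.75, 11.81 and 11.77, and 11.865 and 11.84 in that order. The gate given for M-BMM does not name class II, so their H2-Ab1 values do not bear on it. The Y-linked gene Eif2s3y was low in replicate 1 of GM-BMDC (3.94) and of GM-BMM (3.66), and lay between 8.80 and 9.32 on the other 4 arrays. Xist, the RNA of the inactive X chromosome, was at 11.66 and 10.68 in GM-BMDC, 11.58 and 4.93 in GM-BMM, and 4.53 and 4.80 in M-BMM. Results for the arginine genes are therefore also given with Eif2s3y, Uty and Kdm5d averaged as a covariate, or without both GM-CSF arrays numbered 1, where that changed a call or a direction. Neither alternative adjusts for Xist. GM-BMDC replicate 2 had high Xist (10.68) beside high Eif2s3y (8.80), so neither evens out Xist between the groups. Markers of other cell types were averaged over each list, and their part in the results below was not tested. The 8 dendritic cell genes, H2-Ab1 of the class II gate among them, averaged 10.57 and 10.34 in GM-BMDC, 7.22 and 7.63 in GM-BMM, and 6.12 and 6.27 in M-BMM. The 6 measured macrophage genes, Adgre1 of the F4/80 gate among them, averaged 9.43 and 10.35 in GM-BMDC, 11.21 and 11.43 in GM-BMM, and 11.11 and 11.01 in M-BMM. The 4 measured monocyte genes averaged 8.65 and 9.17 in GM-BMDC, 10.35 and 10.38 in GM-BMM, and 7.75 and 7.21 in M-BMM. The average of the 8 neutrophil genes lay between 6.14 and 6.84 on all 6 arrays. That of the 7 eosinophil and mast cell genes lay between 5.20 and 5.71. The average was between 4.64 and 5.61 for the 6 measured lymphocyte genes, and between 5.81 and 6.15 for the 6 fibroblast genes. Single genes departed from these averages. Ngp of the neutrophil list read 9.02 and 7.02 in GM-BMM, and Dcn of the fibroblast list 7.63 and 6.94. Cd79a of the lymphocyte list read 7.15 and 6.23 in GM-BMDC.

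Arginine enters macrophages mainly through cationic amino acid transporters. Inside the cell, inducible nitric oxide synthase turns it into nitric oxide and citrulline, and argininosuccinate synthase and lyase make arginine again from citrulline. Arginases compete for the same arginine and split it into urea and ornithine, from which polyamines and proline are made. In mouse macrophages, high Nos2 is a textbook mark of activation by interferon gamma and bacterial products, and high Arg1 one of activation by IL-4 or IL-13.

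The main pattern was that the genes of the 2 routes were not ordered alike over the 3 populations. Slc7a2, Nos2 and the shared Ass1 signal were higher in both GM-CSF populations than in M-BMM. Within the GM-CSF cultures Slc7a2 was higher in GM-BMM, while Nos2 was not called (GM-BMDC minus GM-BMM -2.02 and 0.25). Asl, also of the nitric oxide route, did not differ detectably between GM-BMM and M-BMM (0.12). Asl and Odc1 had their highest means in GM-BMDC. Arg1 and Arg2 were high in GM-BMM alone of the 3 populations. Slc7a1 was lower in both GM-CSF populations than in M-BMM, but the call was lost in 7 of 19 alternatives for GM-BMM and in 10 for GM-BMDC.

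**Figure D1:**
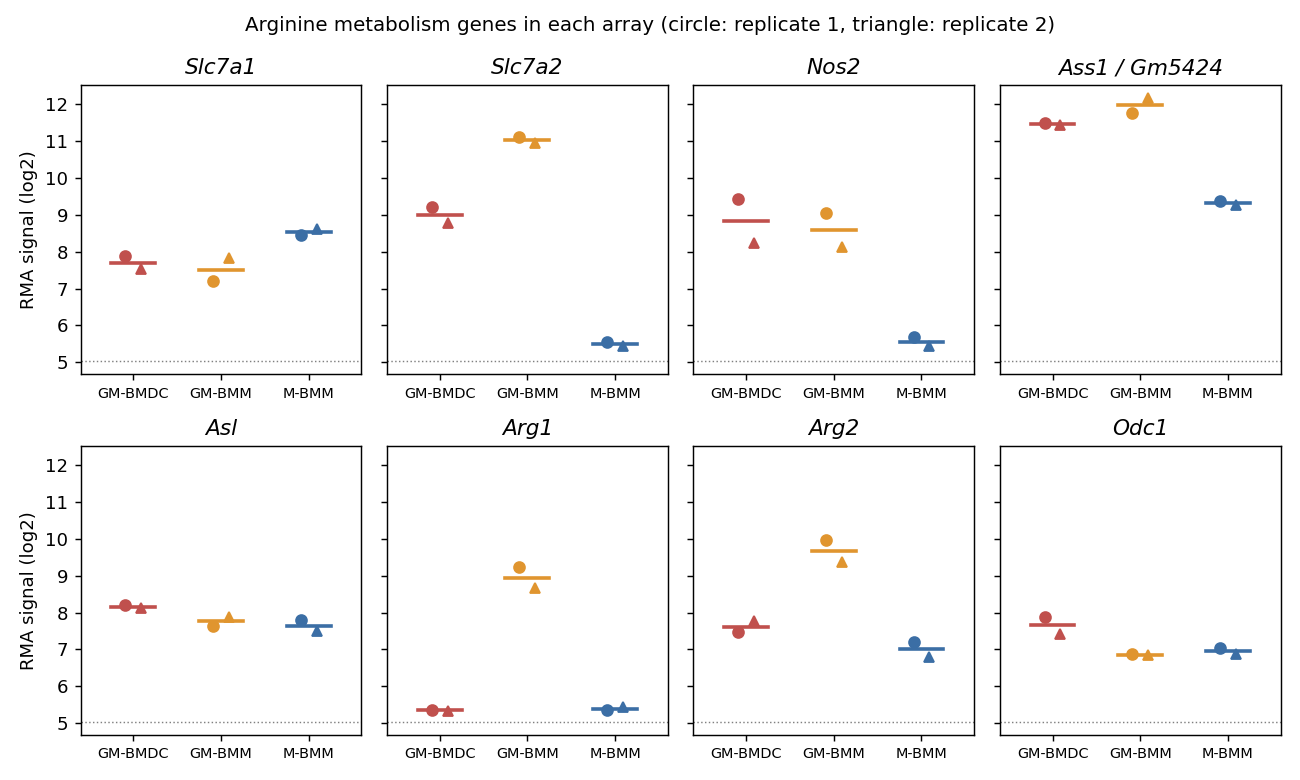
Log2 signal on the vertical axis for each arginine gene, with a circle for replicate 1, a triangle for replicate 2 and a line at the group mean, in the order GM-BMDC, GM-BMM and M-BMM. The dotted line marks 5.04, and both GM-BMM points of Arg1 (9.23 and 8.67) stand above its other 4 points, none of which exceeds 5.43.

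Of the 7 measured genes, limma called 1 higher and 3 lower in GM-BMDC than in GM-BMM at an adjusted p under 0.05, where 4.69% of all genes were called higher and 5.74% lower. Against M-BMM, 4 were higher and 1 lower in GM-BMM, where 3.62% of all genes were called higher and 2.57% lower. GM-BMDC had 4 genes above and 1 below M-BMM, where 7.76% of all genes were called higher and 8.9% lower. The median log2 difference of the 7 genes was 0.19 in GM-BMDC minus GM-BMM, 2.66 in GM-BMM minus M-BMM and 0.62 in GM-BMDC minus M-BMM, beside 0.02, -0.02 and -0.0024 over all genes. Since the 3 comparisons share arrays, they are not independent of each other. The 5 calls in GM-BMM against M-BMM became 3 without M-BMM replicate 1 or without M-BMM replicate 2. The 5 calls in GM-BMDC against M-BMM became 3 without GM-BMDC replicate 2, and 2 without GM-BMDC replicate 1, without M-BMM replicate 1, without M-BMM replicate 2 or with the Y-linked covariate.

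Slc7a2 encodes the inducible cationic amino acid transporter through which activated mouse macrophages take up arginine. Its probe set read 9.23 and 8.79 in GM-BMDC, 11.11 and 10.96 in GM-BMM, and 5.56 and 5.44 in M-BMM. The groups did not overlap, with GM-BMM highest and M-BMM lowest. Slc7a2 was 46.4-fold higher in GM-BMM than in M-BMM (log2 difference 5.54 ± 0.16 SE, limma adjusted p = 1.11e-05), and 2 genes had a larger measured difference in that comparison. Both M-BMM values lay below the array medians of 6.18 to 6.28, and the files do not say whether such signals exceeded background, so this fold, and those of Arg1 and Nos2 against similar signals, compare signals as deposited and may be lower bounds. It was 11.4-fold higher in GM-BMDC than in M-BMM (3.51 ± 0.16, limma adjusted p = 2.78e-05). Within the GM-CSF cultures it was 4.07-fold lower in GM-BMDC than in GM-BMM (-2.02 ± 0.16, limma adjusted p = 0.000501).

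Slc7a1 encodes the cationic amino acid transporter that most cell types carry without induction. It read 7.88 and 7.53 in GM-BMDC, 7.20 and 7.83 in GM-BMM, and 8.45 and 8.61 in M-BMM. Both M-BMM arrays lay above all 4 GM-CSF arrays, while the 2 GM-CSF populations overlapped (GM-BMDC minus GM-BMM 0.19 ± 0.22, limma adjusted p = 0.709). The sign of that difference turned without GM-BMM replicate 1 (-0.13) and without both GM-CSF arrays numbered 1 (-0.31), and it was called without both arrays numbered 2 (0.68, limma adjusted p = 0.0386), an alternative chosen after seeing the data. Slc7a1 was 2.02-fold lower in GM-BMM than in M-BMM (-1.01 ± 0.22, limma adjusted p = 0.0394) and 1.77-fold lower in GM-BMDC than in M-BMM (-0.82 ± 0.22, limma adjusted p = 0.0424). The GM-BMM call was lost without GM-BMM replicate 1 (adjusted p = 0.118), without M-BMM replicate 1 (0.188), without M-BMM replicate 2 (0.257) and with the Y-linked covariate (0.128). The GM-BMDC call was lost without GM-BMDC replicate 1 (0.0643), without GM-BMDC replicate 2 (0.172), without M-BMM replicate 1 (0.159), without M-BMM replicate 2 (0.209) and with the Y-linked covariate (0.159).

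RefSeq (GRCm38.p6) promoter windows, from 250 bases before to 50 after a gene's start, were at hand for Ass1, Odc1 and Slc7a1. They are shown for Slc7a1 and Ass1 because the signals of these genes ran in opposite directions between the GM-CSF populations and M-BMM. Slc7a1 has 2 annotated starts, at chr5:148399855-148400154 and chr5:148392766-148393065 (minus strand, GC content 65.0% and 51.7%), and Ass1 has 1, at chr2:31470020-31470319 (plus strand, GC content 74.0%). Both strands were searched for the E-box CACGTG, the stress element TGATGCAA, the STAT-type element TTCNNNGAA and the TATA box TATAAA, and capitals mark the matches, none of which overlapped.
Slc7a1, upstream start: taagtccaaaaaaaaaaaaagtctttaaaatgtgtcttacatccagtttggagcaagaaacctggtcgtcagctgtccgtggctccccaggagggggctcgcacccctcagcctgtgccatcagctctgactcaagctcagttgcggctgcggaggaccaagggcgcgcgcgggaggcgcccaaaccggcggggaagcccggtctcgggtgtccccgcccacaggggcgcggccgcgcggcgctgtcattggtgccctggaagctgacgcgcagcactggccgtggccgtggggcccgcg
Slc7a1, downstream start: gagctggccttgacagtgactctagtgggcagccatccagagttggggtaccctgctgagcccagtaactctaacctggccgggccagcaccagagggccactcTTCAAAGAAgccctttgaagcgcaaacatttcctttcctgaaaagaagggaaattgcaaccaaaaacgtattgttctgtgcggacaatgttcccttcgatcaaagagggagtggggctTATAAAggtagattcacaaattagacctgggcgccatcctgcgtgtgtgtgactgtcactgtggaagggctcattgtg
Ass1: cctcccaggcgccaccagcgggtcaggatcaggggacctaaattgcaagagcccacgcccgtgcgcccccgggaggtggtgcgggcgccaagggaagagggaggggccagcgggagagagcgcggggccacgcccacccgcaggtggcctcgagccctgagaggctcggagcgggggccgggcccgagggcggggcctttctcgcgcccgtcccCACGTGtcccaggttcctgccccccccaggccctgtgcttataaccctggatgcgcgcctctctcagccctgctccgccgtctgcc

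The downstream Slc7a1 window held TTCNNNGAA at -146 and TATAAA at -28 bases from its start, and the upstream window held none of the 4. The Ass1 window held CACGTG at -36, and the Odc1 window (GC content 78.0%) held none of the 4. Of 32851 promoter windows of this length, 7.15% held CACGTG, 0.895% TGATGCAA, 8.3% TTCNNNGAA and 13.6% TATAAA. These matches describe the letters only, and the kept Slc7a1 probe set gives 1 level for the gene.

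Nos2, the inducible nitric oxide synthase, read 9.44 and 8.24 in GM-BMDC, 9.07 and 8.12 in GM-BMM, and 5.69 and 5.43 in M-BMM. Both GM-CSF populations lay above both M-BMM arrays, and they overlapped each other. Nos2 was 9.72-fold higher in GM-BMDC than in M-BMM (3.28 ± 0.42 SE, limma adjusted p = 0.00196) and 8.20-fold higher in GM-BMM than in M-BMM (3.04 ± 0.42, limma adjusted p = 0.00642). Between the GM-CSF populations the difference was 0.25 ± 0.42, with a 95% interval from -0.73 to 1.22 (limma adjusted p = 0.811). Its sign turned without GM-BMDC replicate 1 (-0.35) and without GM-BMM replicate 2 (-0.23).

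Within each GM-CSF population the spread of Nos2 was the widest of the 7 genes (SD 0.85 in GM-BMDC and 0.67 in GM-BMM). Replicate 1 exceeded replicate 2 in both GM-CSF populations, and these were the arrays with low Eif2s3y. With the Y-linked covariate the differences from M-BMM were 2.63 in GM-BMDC (limma adjusted p = 0.000473) and 2.41 in GM-BMM (limma adjusted p = 0.00129). Without both arrays numbered 1 they were 2.68 and 2.56, and without GM-BMDC replicate 2 alone the difference of GM-BMDC was 3.88. The covariate's own part in Nos2 was not tested. The call in GM-BMM against M-BMM was lost without M-BMM replicate 1 (3.16, limma adjusted p = 0.0729) and without M-BMM replicate 2 (2.91, limma adjusted p = 0.0928).

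Ass1 encodes argininosuccinate synthase, which joins citrulline to aspartate. Probe set 10363541, shared with Gm5424, read 11.49 and 11.45 in GM-BMDC, 11.78 and 12.17 in GM-BMM, and 9.37 and 9.28 in M-BMM. Probe set 10471154, also shared, read 11.37 and 11.32, 11.68 and 12.04, and 9.27 and 9.14 in the same order of groups. Both M-BMM arrays lay below all 4 GM-CSF arrays on each probe set. In a fit over all 35556 probe sets, they were 4.42- and 4.41-fold higher in GM-BMDC than in M-BMM (2.15 and 2.14, limma adjusted p = 0.0031 and 0.00277), where 3.9% of probe sets were called higher. In GM-BMM they were 6.29- and 6.30-fold higher than in M-BMM (2.65 and 2.66, limma adjusted p = 0.00313 and 0.00271), where 1.63% were called higher. That call was lost without both GM-CSF arrays numbered 1, although the difference was 2.85 and 2.83 there (limma adjusted p = 0.0577 for both). GM-BMDC minus GM-BMM was -0.51 on both and missed the threshold (limma adjusted p = 0.155 and 0.141), with arrays that did not overlap. How much of the signal came from Ass1 and how much from Gm5424 cannot be told apart.

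Asl encodes argininosuccinate lyase, which releases arginine in the next step. It read 8.20 and 8.11 in GM-BMDC, 7.65 and 7.87 in GM-BMM, and 7.79 and 7.49 in M-BMM. GM-BMDC were highest, and GM-BMM and M-BMM overlapped (GM-BMM minus M-BMM 0.12 ± 0.14, limma adjusted p = 0.758). Asl was 1.43-fold higher in GM-BMDC than in M-BMM (0.52 ± 0.14, limma adjusted p = 0.0492), a call that was lost in 12 of 19 alternatives, among them those without both GM-CSF arrays numbered 1 (0.47, limma adjusted p = 0.112) and with the Y-linked covariate (0.57, limma adjusted p = 0.101). Against GM-BMM the difference was 0.40 ± 0.14 with arrays that did not overlap (limma adjusted p = 0.146).

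Arg1, the cytosolic arginase, read 5.37 and 5.34 in GM-BMDC, 9.23 and 8.67 in GM-BMM, and 5.35 and 5.43 in M-BMM. Both GM-BMM arrays stood far above the other 4, which lay between 5.34 and 5.43. Arg1 was 12.1-fold lower in GM-BMDC than in GM-BMM (-3.60 ± 0.18 SE, limma adjusted p = 7.29e-05) and 11.7-fold higher in GM-BMM than in M-BMM (3.55 ± 0.18, limma adjusted p = 7.68e-05). It did not differ detectably between GM-BMDC and M-BMM (-0.04 ± 0.18, 95% interval -0.46 to 0.38, limma adjusted p = 0.923). Those 4 values lay below the array medians of 6.18 to 6.28. Whether such signals exceeded background is not given, so the interval cannot show equal Arg1 RNA. Without both GM-CSF arrays numbered 1 the 3 differences were -3.33, 3.28 and -0.06.

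Arg2, the mitochondrial arginase, read 7.47 and 7.77 in GM-BMDC, 9.96 and 9.36 in GM-BMM, and 7.20 and 6.80 in M-BMM. GM-BMM again stood above all other arrays. Arg2 was 4.11-fold lower in GM-BMDC than in GM-BMM (-2.04 ± 0.23, limma adjusted p = 0.00193) and 6.30-fold higher in GM-BMM than in M-BMM (2.66 ± 0.23, limma adjusted p = 0.000765). GM-BMDC lay above M-BMM with no overlap, but the difference of 0.62 ± 0.23 missed the threshold (limma adjusted p = 0.121). That difference passed it without both GM-CSF arrays numbered 1 (0.76, limma adjusted p = 0.0299). Of the 4 measured monocyte markers, 2 were called in GM-BMDC against GM-BMM, both lower, and 3 in GM-BMM against M-BMM, all higher. Set beside M-BMM, GM-BMDC had 2 of them called upward and 1 downward. Of all genes, 5.74% were called lower in the first comparison and 3.62% higher in the second. In the third, 7.76% were called higher and 8.9% lower. The 4 markers did not share an order of groups. In the order GM-BMDC, GM-BMM and M-BMM, Hp averaged 7.11, 11.36 and 8.01, and Plac8 6.16, 8.86 and 8.42. Ccr2 averaged 10.57, 9.82 and 6.82, and Fn1 11.82, 11.42 and 6.66. The part of these markers in the arginase results was not tested.

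**Figure D2:**
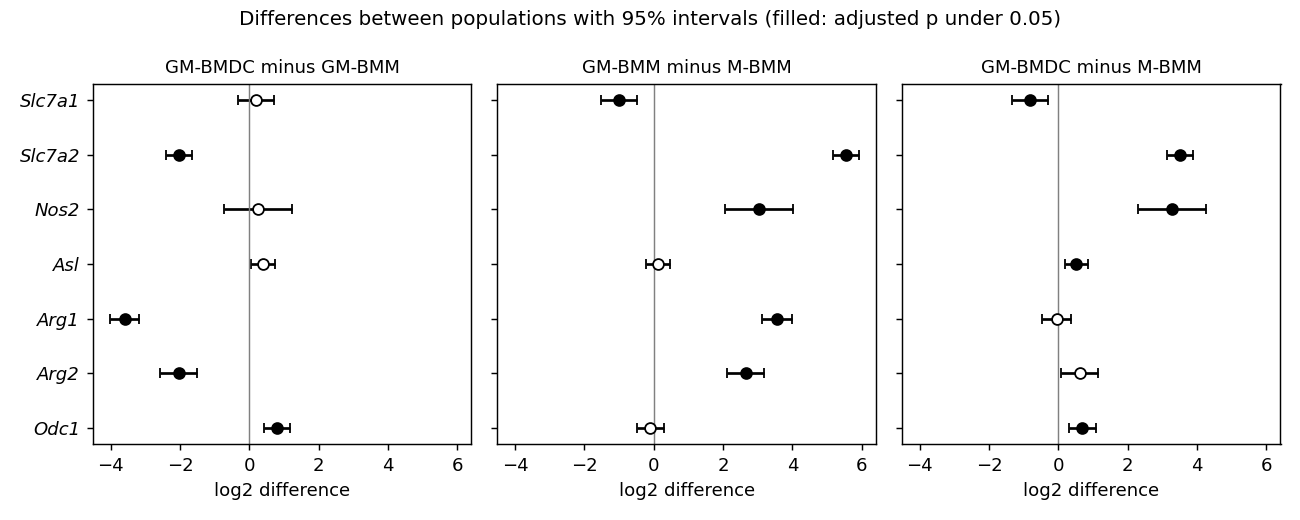
Log2 differences between group means with 95% intervals from limma for each arginine gene, in the 3 comparisons. The intervals of Arg1 and Arg2 lie below 0 in GM-BMDC minus GM-BMM and above 0 in GM-BMM minus M-BMM, and that of Nos2 spans 0 only in GM-BMDC minus GM-BMM.

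Odc1 encodes ornithine decarboxylase, the rate-limiting enzyme of polyamine synthesis. It read 7.89 and 7.42 in GM-BMDC, 6.86 and 6.85 in GM-BMM, and 7.03 and 6.89 in M-BMM. GM-BMDC were highest, so Odc1 did not share the order of the arginases. It was 1.74-fold higher in GM-BMDC than in GM-BMM (0.80 ± 0.17 SE, limma adjusted p = 0.0234) and 1.62-fold higher than in M-BMM (0.69 ± 0.17, limma adjusted p = 0.0279). GM-BMM minus M-BMM was -0.11 ± 0.17 (limma adjusted p = 0.823). All 8 dendritic cell markers were also called higher in GM-BMDC in both of its comparisons. Of all genes, 4.69% were called higher against GM-BMM and 7.76% against M-BMM. The list includes H2-Ab1, Cd74 and Ciita, of the class II pathway on which GM-BMDC were sorted, so those calls partly follow from the gate. The part of the markers in the Odc1 result was not tested.

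Both Odc1 calls depended on single arrays. The difference from GM-BMM was 0.57 without GM-BMDC replicate 1 (limma adjusted p = 0.0817), and the call was also lost without GM-BMM replicate 1 (0.0703), without GM-BMM replicate 2 (0.0887), without either M-BMM array (0.063 for each) and without both GM-CSF arrays numbered 1 (0.57, 0.0837), in all in 9 of 19 alternatives. The difference from M-BMM was 0.46 without GM-BMDC replicate 1. That call was lost in 7 of 19 alternatives, among them those without both GM-CSF arrays numbered 1 (0.46, limma adjusted p = 0.0785) and with the Y-linked covariate (0.56, limma adjusted p = 0.115). The other Odc1 probe set read 7.75 and 7.47 in GM-BMDC, 6.65 and 6.44 in GM-BMM, and 6.79 and 6.91 in M-BMM, again highest in GM-BMDC. In the fit over all probe sets it differed by 1.07 from GM-BMM (limma adjusted p = 0.0233) and by 0.76 from M-BMM (limma adjusted p = 0.0364).

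For Slc7a2 in all 3 comparisons, Arg1 and Arg2 in the comparisons with GM-BMM, and Nos2 in GM-BMDC against M-BMM, the call was lost in 1 of 19 alternatives, the one that took each gene's spread from its own arrays alone. Without any 1 array, Arg1 lay between -3.87 and -3.32 in GM-BMDC minus GM-BMM, and Slc7a2 lay between 5.46 and 5.61 in GM-BMM minus M-BMM.

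Most genes around these steps were not called. Of the 14 genes of cationic amino acid transport, which include both Slc7a transporters above, 2 were called in GM-BMDC against GM-BMM, both lower (median 0.12), 1 higher and 2 lower in GM-BMM against M-BMM (median -0.01), and 2 higher and 1 lower in GM-BMDC against M-BMM (median 0.07). The medians over all genes given above apply to every list, and so do the shares of all genes called, which for higher and lower calls were 4.69% and 5.74% in GM-BMDC against GM-BMM, 3.62% and 2.57% in GM-BMM against M-BMM, and 7.76% and 8.9% in GM-BMDC against M-BMM. Slc7a7, which exports cationic amino acids with Slc3a2, read 9.46 and 9.05 in GM-BMDC, 8.63 and 9.32 in GM-BMM, and 10.05 and 10.10 in M-BMM. M-BMM were highest, and the call in GM-BMM against M-BMM (-1.09, limma adjusted p = 0.0371) was lost without GM-BMM replicate 1 (0.102), M-BMM replicate 1 (0.214) or M-BMM replicate 2 (0.234). Slc7a6, a related exchanger, was called higher in GM-BMDC than in M-BMM (0.73, limma adjusted p = 0.00862), and missed the threshold without M-BMM replicate 2 (0.0782).

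**Figure D3:**
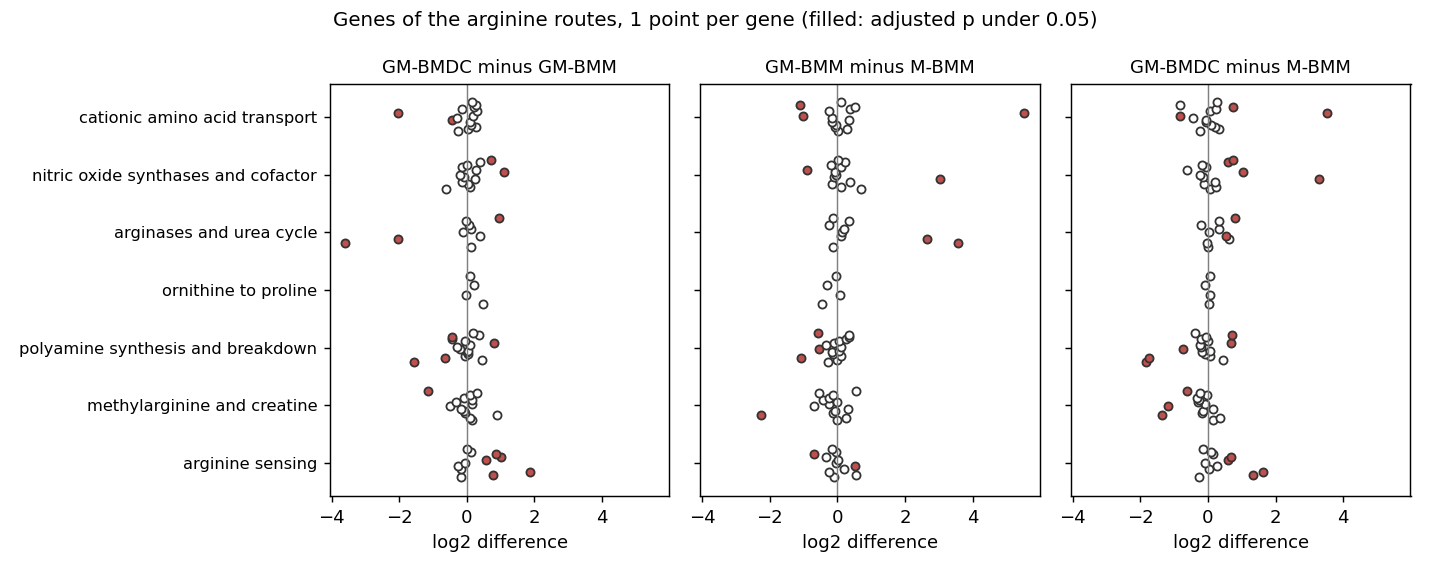
Log2 differences of every measured gene of the arginine pathway lists in the 3 comparisons, with 1 point per gene, filled where limma called it. In GM-BMM minus M-BMM the 4 points farthest to the right are Slc7a2 (5.54), Arg1 (3.55), Nos2 (3.04) and Arg2 (2.66).

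Of the 9 measured arginase and urea cycle genes, 1 was called higher and 2 lower in GM-BMDC than in GM-BMM (median 0.06), 2 in GM-BMM against M-BMM, both higher (median 0.15), and 2 in GM-BMDC against M-BMM, both higher (median 0.32). Besides Arg1, Arg2 and Asl, the calls were those of Slc25a13, the mitochondrial carrier that exports aspartate for argininosuccinate synthesis. It read 8.16 and 7.91 in GM-BMDC, 7.13 and 7.06 in GM-BMM, and 7.31 and 7.15 in M-BMM, so GM-BMDC stood above the rest. It was higher by 0.94 against GM-BMM (limma adjusted p = 0.00474) and by 0.80 against M-BMM (limma adjusted p = 0.00565), the second call being lost without M-BMM replicate 2 (0.0599).

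Of the 13 measured genes of nitric oxide synthases, Nos2 included, their partners and the cofactor tetrahydrobiopterin, 2 were called in GM-BMDC against GM-BMM, both higher (median 0.04). The counts were 1 higher and 1 lower in GM-BMM against M-BMM (median 0.03), and 4, all higher, in GM-BMDC against M-BMM (median 0.07). Nos2 was the 1 higher call in GM-BMM and 1 of the 4 in GM-BMDC. Nostrin, which binds endothelial nitric oxide synthase and moves it off the membrane, read 9.08 and 8.81 in GM-BMDC, 7.78 and 7.91 in GM-BMM, and 7.96 and 7.84 in M-BMM. It was higher in GM-BMDC than in GM-BMM (1.102, limma adjusted p = 0.00258) and M-BMM (1.05, limma adjusted p = 0.00194). Nos1 and Nos3, the neuronal and endothelial synthases, lay between 5.54 and 6.04 on all 6 arrays, and neither was called in any comparison. Gch1, the rate-limiting enzyme of tetrahydrobiopterin synthesis, was chosen for mention after its values were seen. It read 7.05 and 7.00 in GM-BMDC, 7.47 and 7.82 in GM-BMM, and 7.15 and 6.77 in M-BMM, highest in GM-BMM but past no threshold there (-0.62 in GM-BMDC minus GM-BMM, limma adjusted p = 0.0657, and 0.69 in GM-BMM minus M-BMM, limma adjusted p = 0.0649).

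None of the 4 measured genes from ornithine to proline was called by limma in any of the 3 comparisons, with 1, 2 and 0 of them under an unadjusted p of 0.05 in GM-BMDC against GM-BMM, GM-BMM against M-BMM and GM-BMDC against M-BMM (medians 0.16, -0.18 and 0.03). Of the 16 measured polyamine genes, which include Odc1 and share Slc3a2 with the transport list, 1 was called higher and 3 lower in GM-BMDC than in GM-BMM (median -0.03), 3 in GM-BMM against M-BMM, all lower (median -0.06), and 2 higher and 3 lower in GM-BMDC against M-BMM (median -0.14). Azin1, an inhibitor of the antizymes that send ornithine decarboxylase to breakdown, read 8.21 and 8.16 in GM-BMDC, 8.62 and 9.07 in GM-BMM, and 9.86 and 9.99 in M-BMM. It was lower in GM-BMDC than in M-BMM (-1.74, limma adjusted p = 0.00051) and than in GM-BMM (-0.66, limma adjusted p = 0.0428), the call against GM-BMM being lost in 11 of 19 alternatives. It was also lower in GM-BMM than in M-BMM (-1.08, limma adjusted p = 0.00861), a call that was lost without M-BMM replicate 1 (0.0791) or 2 (0.108). Atp13a2, which exports polyamines from lysosomes, read 7.75 and 8.75 in GM-BMDC, 9.62 and 9.98 in GM-BMM, and 10.10 and 10.07 in M-BMM. It was lower in GM-BMDC than in GM-BMM (-1.55, limma adjusted p = 0.017) and M-BMM (-1.84, limma adjusted p = 0.00547). Both calls were lost without M-BMM replicate 1 (0.0581 and 0.0628) or replicate 2 (0.0581 and 0.0565), and the call against GM-BMM also without GM-BMM replicate 2 (0.0815). Smox, which oxidises spermine back to spermidine, was higher in GM-BMDC than in M-BMM by 0.72 (limma adjusted p = 0.00379).

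Of the 14 genes of methylarginine and creatine metabolism, the calls were all lower, with 1, 1 and 3 in GM-BMDC against GM-BMM, GM-BMM against M-BMM and GM-BMDC against M-BMM (medians 0.03, -0.14 and -0.20). Ckb, the brain-type creatine kinase, read 10.19 and 10.17 in GM-BMDC, 8.88 and 9.69 in GM-BMM, and 11.54 and 11.54 in M-BMM, and it was lower in GM-BMM than in M-BMM (-2.26, limma adjusted p = 0.0019). Slc6a8, the creatine transporter, was lower in GM-BMDC than in GM-BMM (-1.16, limma adjusted p = 0.00201).

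Arginine is also sensed, since Castor1 binds it and, where arginine is short, holds back growth signalling through mTOR. A list of 11 genes held arginine sensors and genes of the signalling around them, such as Mtor. Of these, 5 were called in GM-BMDC against GM-BMM, all higher (median 0.14, with 4.69% of all genes called higher). The calls were 1 higher and 1 lower in GM-BMM against M-BMM (median -0.04), and 4 in GM-BMDC against M-BMM, all higher (median 0.15). Besides Castor1 and Castor2, those in GM-BMDC against GM-BMM were Mtor, Rptor and Sesn2, lost in 9, 3 and 2 of 19 alternatives. Against M-BMM, the Mtor and Rptor calls in GM-BMDC were lost in 7 and 9 of 19. Castor2, the paralogue of Castor1, read 10.16 and 9.41 in GM-BMDC, 8.02 and 7.81 in GM-BMM, and 8.29 and 8.02 in M-BMM. It was higher in GM-BMDC than in GM-BMM (1.87, limma adjusted p = 0.00341) and M-BMM (1.63, limma adjusted p = 0.00373). Castor1 itself read 8.11 and 7.93, 7.38 and 7.13, and 6.87 and 6.52 in the same order of groups, and was higher in GM-BMDC than in M-BMM by 1.33 (limma adjusted p = 0.00157).

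Of 20 measured genes known to regulate Arg1 or Nos2, 1 was called higher and 4 lower in GM-BMDC than in GM-BMM (median 0.06), 4 higher and 1 lower in GM-BMM against M-BMM (median 0.22), and 5 higher and 3 lower in GM-BMDC against M-BMM (median 0.09). The 1 higher call of 20 in GM-BMDC against GM-BMM is near the 4.69% of all genes. Csf2rb, the signalling chain of the GM-CSF receptor, read 12.64 and 12.71 in GM-BMDC, 12.60 and 11.98 in GM-BMM, and 10.29 and 10.30 in M-BMM. Il13ra1, a chain of the IL-13 receptor, read 10.32 and 10.36, 9.85 and 9.22, and 7.57 and 7.22 in the same order. Both genes were higher in each GM-CSF population than in M-BMM, Il13ra1 by 2.94 in GM-BMDC and 2.13 in GM-BMM, and Csf2rb by 2.38 and 1.996. Neither was called between the GM-CSF populations (limma adjusted p = 0.0573 for Il13ra1 and 0.297 for Csf2rb), although for both genes the GM-BMDC arrays lay above the GM-BMM arrays. Il13ra1 was called higher in GM-BMDC with a replicate block (0.81, limma adjusted p = 0.0301) and with the Y-linked covariate (0.80, limma adjusted p = 0.0418). Without GM-BMM replicate 1 the differences were 1.12 for Il13ra1 and 0.69 for Csf2rb.

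Cebpb and Hif1a encode transcription factors that act on the mouse Arg1 and Nos2 genes, and both had their highest means in GM-BMM. Cebpb read 7.28 and 7.75 in GM-BMDC, 8.69 and 8.92 in GM-BMM, and 8.22 and 8.08 in M-BMM, and was lower in GM-BMDC than in GM-BMM (-1.29, limma adjusted p = 0.00422). Its difference between GM-BMM and M-BMM missed the threshold (0.65, limma adjusted p = 0.0795). That difference passed it in 6 of 19 alternatives, among them the Y-linked covariate (0.86, limma adjusted p = 0.0287). Cebpb was also lower in GM-BMDC than in M-BMM (-0.64, limma adjusted p = 0.0457), a call lost in 7 of 19 alternatives. Cebpd was lower in GM-BMDC than in GM-BMM (-0.98, limma adjusted p = 0.016) and M-BMM (-1.04, limma adjusted p = 0.00829). Its GM-BMM minus M-BMM difference was -0.06. Irf8 was higher in GM-BMDC than in GM-BMM (0.94, limma adjusted p = 0.0242) and M-BMM (0.91, limma adjusted p = 0.0188). The Cebpd and Irf8 calls were lost in 7, 3, 8 and 6 of 19 alternatives, in that order. Hif1a read 10.65 and 10.81 in GM-BMDC, 11.73 and 11.61 in GM-BMM, and 10.74 and 10.44 in M-BMM. It was lower in GM-BMDC than in GM-BMM (-0.94, limma adjusted p = 0.0061) and higher in GM-BMM than in M-BMM (1.08, limma adjusted p = 0.00489), the last call being lost without M-BMM replicate 2 (0.059).

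Lists of genes often used to mark alternative and classical activation had called members in both directions in GM-BMDC against GM-BMM. The alternative list of 14 genes, without Arg1, gave 5 calls upward and 3 downward in GM-BMDC against GM-BMM (median 0.42), 7 upward and 1 downward in GM-BMM against M-BMM (median 1.68), and 7 upward and 2 downward in GM-BMDC against M-BMM (median 1.97). The classical list of 14 genes, without Nos2, gave 5 upward and 7 downward, 7 that were all upward, and 7 upward and 2 downward in the same order (medians -1.27, 1.03 and 0.39). In the alternative list, the chemokine genes Ccl17 and Ccl22 differed most in GM-BMDC against M-BMM (7.20, limma adjusted p = 0.00361, and 7.05, limma adjusted p = 3.74e-05), Ccl17 by 5.78 with the Y-linked covariate. Unlike Arg1, Ccl22 was also higher in GM-BMDC than in GM-BMM (5.26, limma adjusted p = 0.000257). The 2 GM-BMM arrays differed widely on some genes of this list, Ccl17 reading 10.74 and 6.74 and Mgl2 9.47 and 5.87. On others they were close, as on Tgm2 (10.53 and 10.55). Ccl17 and Mgl2 were called higher in GM-BMDC than in GM-BMM (4.42 and 3.93, limma adjusted p = 0.039 and 0.0423). Each of these calls was lost in 8 of 19 alternatives. Il12a, the smaller chain of interleukin 12, read 5.96 and 5.95 in GM-BMDC, 8.81 and 8.64 in GM-BMM, and 5.58 and 5.45 in M-BMM, highest in GM-BMM as Arg1 was. Il12b, the other chain of the same cytokine, read 9.09 and 8.73 in GM-BMDC, 5.95 and 6.80 in GM-BMM, and 5.36 and 5.62 in M-BMM. It was higher in GM-BMDC than in GM-BMM (2.53, limma adjusted p = 0.00167), as was Cd86, a costimulatory protein (2.67, limma adjusted p = 0.000381). Il6 read 8.16 and 7.41, 9.14 and 8.42, and 5.15 and 4.82 in the same order of groups, and was higher in GM-BMM than in M-BMM by 3.80 (limma adjusted p = 0.000568).

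The 3 genes nearest in pattern to Slc7a2, Arg1 and Nos2 were found from each gene's 6 values minus their mean, as the root mean square difference over the 6 arrays. Predicted and clone names were left out, and the values describe likeness with no test. Nearest to Slc7a2 were Acpp, an acid phosphatase (0.319), Inhba, the activin A subunit (0.415), and F7, a coagulation factor (0.606). Nearest to Arg1 were the long noncoding RNA Mirt2 (0.183), the potassium channel gene Kcnn3 (0.258) and Chil3, a chitinase-like protein used as a marker of alternative activation in mice (0.261). Chil3 read 5.40 and 5.61 in GM-BMDC, 9.40 and 8.27 in GM-BMM, and 5.48 and 5.08 in M-BMM, with a wider spread in GM-BMM than Arg1 had. Nearest to Nos2 were the olfactory receptor gene Olfr111 (0.327), Malt1, a protease of NF-kappaB signalling (0.339), and Tarm1, an activating receptor of myeloid cells (0.387).

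**Figure D4:**
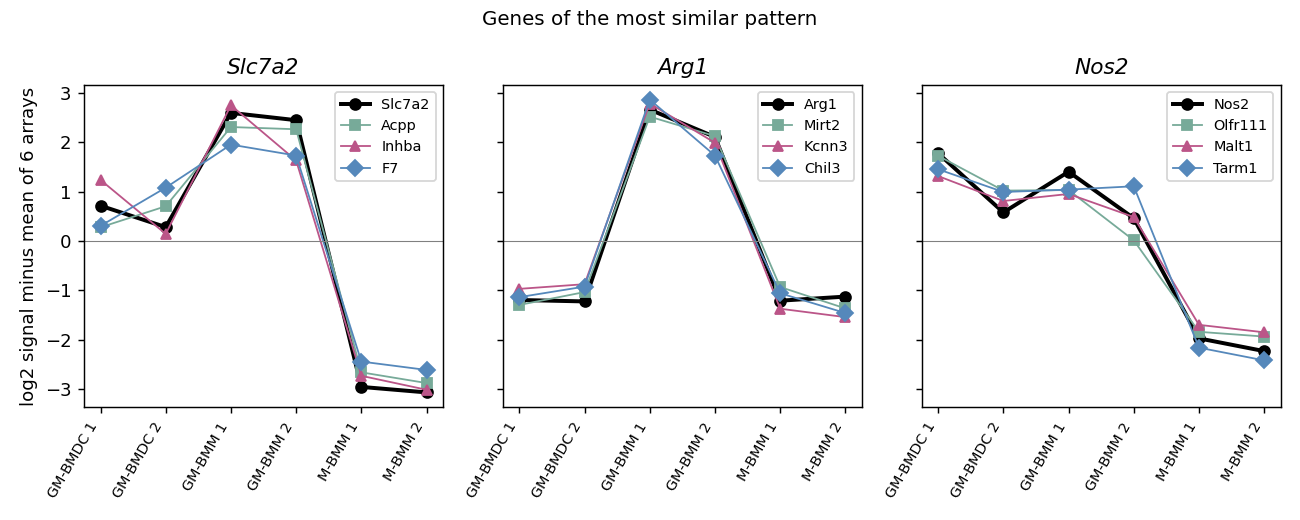
Log2 signal minus each gene's mean over the 6 arrays, for Slc7a2, Arg1 and Nos2 and the 3 genes nearest to each, by array in the order GM-BMDC, GM-BMM and M-BMM. The lines near Arg1 lie above 0 in the 2 GM-BMM arrays only, and those near Nos2 lie below 0 in the 2 M-BMM arrays.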

How the data were processed

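RNA of 6 samples was measured on 1 Affymetrix array per sample (300 ng of total RNA used). The deposited values are log2 signals that the authors made with Affymetrix Expression Console 1.1 and RMA, per the submitters' processing notes. RMA corrects background, equalises the arrays' distributions and summarises each probe set, so array-wide shifts are removed and low signals are compressed. The genome build is not given in the sources used here. Of 35556 probe sets, the platform annotation gave 1 gene for 21789, several for 1621 and none for 12146. Keeping the probe set with the highest mean for the 999 genes with several left 19938 genes, and 19856 symbols matched a RefSeq gene. Array medians lay between 6.18 and 6.28, and precision is limited by 2 arrays per group, with a standard error of 0.13 for the median gene.

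One model of 3 groups was fitted with limma 3.58.1 in R 4.3.3 (lmFit and eBayes, 3 residual and 4.34 prior degrees of freedom), and p-values were adjusted over all genes (Benjamini-Hochberg, threshold 0.05). The script was tested on simulated data. The members and the gene lists were chosen with earlier results of these data known. Genes named from a list are among its 4 called genes with the largest difference in a comparison, and Gch1, Nos1 and Nos3 fall outside that rule. Alternatives left out single arrays or pairs, added a replicate block or a Y-linked covariate, and changed the filter, normalization, variance model, probe set rule and features tested. Some listed genes were not analysed here.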

Additional observations from a re-analysis of the deposited data

How the results depend on the processing

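No called difference of the 7 genes changed sign in any of the 19 alternatives. Genes called without any 1 array ranged from 1102 to 2055 in GM-BMDC against GM-BMM (2079 with all arrays), from 319 to 1347 in GM-BMM against M-BMM (1235) and from 1288 to 3412 in GM-BMDC against M-BMM (3323), and the calls among the 7 genes ranged from 3 to 4, 3 to 5 and 2 to 5. Leaving out an array also leaves its group with 1, which is then assumed to vary like the others. In the same order of comparisons, a fit and adjustment over all probe sets called 1019, 615 and 2030 of the 19938 kept probe sets, with 2 of the 7 genes in the last. A fit without moderation called 0, 8 and 17 genes and 0 of the 7 in each, although 3686, 3075 and 4628 genes, and 4, 5 and 4 of the 7, had an unadjusted p under 0.05 in limma's ordinary linear model, which has 3 residual degrees of freedom. Fitting only the 2 groups compared gave 1207 in GM-BMDC against GM-BMM. The Y-linked covariate gave 2114 in GM-BMDC against M-BMM, with 2 of the 7. Leaving out both GM-CSF arrays numbered 2, an alternative chosen after seeing the data, gave 2048 in GM-BMM against M-BMM. Replicate numbers were not shown to pair the arrays. Replicate 1 minus 2 correlated across genes at 0.02 between GM-BMDC and GM-BMM, -0.13 between GM-BMDC and M-BMM and 0.03 between GM-BMM and M-BMM. A correlation over all genes cannot decide whether arrays were paired. Eif2s3y was low in replicate 1 and high in replicate 2 of GM-BMDC (3.94 and 8.80) and of GM-BMM (3.66 and 9.10). Whether those arrays shared a source was not tested. The replicate block gave 1963, 1176 and 3060 genes and 3 of the 7 in GM-BMDC against M-BMM, where Slc7a1 and Asl (adjusted p = 0.0711) dropped out. With the M-BMM numbers crossed, added after seeing the data, the block gave 2002, 1121 and 3155 genes, and 3 of the 7 in GM-BMDC against M-BMM. Beyond these constructions, the cause was not tested.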
